A study of Canis lupus familiaris with 222 samples.

Results

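Simple carcinomas are malignant mammary tumors built of epithelial cells of 1 kind, without the proliferating myoepithelial component that defines complex carcinomas. The dogs described here had both a tumor library and a library of adjacent normal mammary tissue, and their tumor was a simple carcinoma in Supplementary Data 1 of the study. This rule gave 21 dogs of the 64 with both tissues, or 42 of the 222 libraries of the series. Each dog was its own control, so the quantity compared throughout was the paired difference of log2(FPKM + 1), tumor minus normal.

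All 21 dogs were female pet dogs with spontaneous tumors, with no experimental treatment and no engineered allele, and they came from 9 breeds. Ages ran from 2 to 19 years, with a median of 13, and 11 dogs were intact and 10 neutered. The tumors were 11 tubulopapillary, 9 solid and 1 anaplastic carcinomas. The sample labels gave grade 1 to 6 tumors, grade 2 to 5 and grade 3 to 9. For the remaining dog, CMT-149, the label read simple adenoma and benign where Supplementary Data 1 gave a simple carcinoma; it was kept by the rule and left out of comparisons between grades or histologies. Estrogen receptor status was positive in 15 tumors and negative in 6. All 9 grade 3 tumors were of solid or anaplastic type and all 9 had invaded lymphatic vessels, whereas none of the 11 tumors of grade 1 or 2 had, and only 1 of these was solid. Grade, growth pattern and lymphatic invasion can therefore not be told apart here. The normal tissue was mammary gland next to the tumor of the same animal, so it is not tissue of a healthy dog.

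The mammary gland consists of milk-secreting and ductal epithelium, surrounded by myoepithelial cells and set in fat and connective tissue with vessels and immune cells. A carcinoma replaces much of this mixture with neoplastic epithelium and its stroma. In bulk RNA, fewer cells of a type and less RNA per cell cannot be told apart. Genes are given by Ensembl identifier, because names could not be looked up in the tables at hand, and for the same reason neither tissue could be checked against marker genes.

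Of 24580 identifiers, 14657 had a mean FPKM of at least 0.5 over the 42 libraries and were tested. Median FPKM over these lay between 3.86 and 8.26 in tumors and between 3.29 and 7.99 in normal tissues. The lowest belonged to the tumor of CMT-644 and the normal tissue of CMT-105. Without these 2 dogs, 0.962% of the identifiers tested were called higher in tumors and 3.11% lower, against 1.02% and 3.46% with them.

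Many more identifiers were lower in the carcinomas than higher. An identifier was called at an adjusted p under 0.05 (limma, Benjamini-Hochberg over all 14657) and a mean paired log2 difference of at least 1. By this rule 507 identifiers were lower in tumors, 3.46% of those tested, and 150 were higher, or 1.02%, so that 4.48% were called in all. The median log2 difference over all tested identifiers was 0.00159. Single dogs had broader shifts: 5032 identifiers fell by at least 1 and 655 rose in CMT-644, and 3418 rose and 1174 fell in CMT-105. The library medians of these dogs were offset the same way. CMT-644 had 3.86 FPKM in tumor and 7.83 in normal tissue, and CMT-105 had 5.13 and 3.29. Whether the offsets account for the shifts was not tested. At an adjusted p under 0.05 without regard to size, the directions were closer, with 1413 lower and 1068 higher. Among larger differences they were further apart. A log2 difference of at least 3 was reached by 33 identifiers in the lower direction and by 1 in the higher direction.

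**Figure D1:**
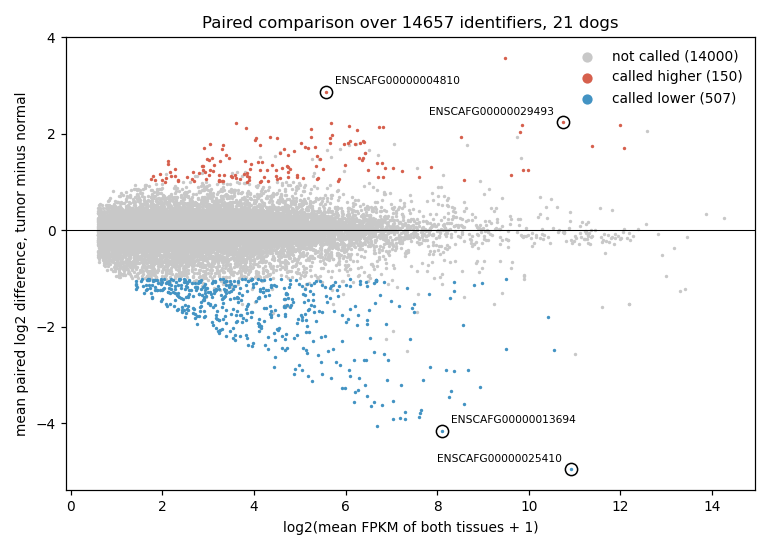
Mean paired log2 difference, tumor minus normal, over 21 dogs (vertical axis) against log2 of the mean FPKM of both tissues plus 1 (horizontal axis), 1 point per tested identifier. The 507 identifiers called lower (blue) extend below -4, whereas few of the 150 called higher (red) pass 2; circles mark the 4 named identifiers.

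The called differences were not uniform across the dogs. Those called higher rose in a median of 17 of the 21 dogs, and those called lower fell in a median of 16. In at least 20 dogs the direction was shared for 8 identifiers called higher and 22 called lower. For 76 of the identifiers called lower, the median paired difference lay within 0.5 of 0. A median of at least 5 FPKM in normal tissue and under 0.5 in the tumors was found for 38 identifiers called lower. No identifier called higher showed the opposite, a median under 0.5 FPKM in normal tissue and at least 5 in the tumors.

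The clearest gain among the named identifiers was that of ENSCAFG00000004810. In the normal tissues its level had a lowest value of 0, a median of 2.23 and a highest value of 69.1 FPKM. In the tumors the corresponding values were 0, 17.4 and 881 FPKM. The level was higher in the tumor in 19 of 21 dogs, and 20 tumors lay above the median of the normal tissues, although only 3 exceeded the highest normal tissue. The mean paired log2 difference was 2.87 (SE 0.43, n = 21, adjusted p = 0.000701 by limma). The exceptions were CMT-193, whose normal tissue was the highest of all at 69.1 FPKM with 27.9 in its tumor, and CMT-606, whose tumor was listed at 0.

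ENSCAFG00000029493 was abundant in both tissues and higher in most tumors. Its level in normal tissue had a lowest value of 6.17, a median of 148.1 and a highest value of 5503 FPKM. In the tumors these values were 67.3, 831 and 31875 FPKM. The ranges overlapped widely, with 3 tumors above the highest normal tissue, and 17 of 21 dogs had the higher value in the tumor. The mean paired log2 difference was 2.23 (SE 0.65, n = 21, adjusted p = 0.022 by limma). In the 15 dogs operated on in 2017 it was 1.42 and no longer passed the test (adjusted p = 0.18 by limma).

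The lowest mean paired difference of all 14657 identifiers tested was that of ENSCAFG00000025410, which was in place 35 by mean FPKM in normal tissue. Normal tissues ranged from 2.89 to 18944 FPKM, with a median of 1425. The tumors ranged from 0.57 to 3682 FPKM, with a median of 33.2. The level fell in 19 of 21 dogs, and 3 tumors lay below the lowest normal tissue. The mean paired log2 difference was -4.95 (SE 0.88, n = 21, adjusted p = 0.00185 by limma). In CMT-206 the level went from 18944 FPKM in normal tissue to 0.655 in the tumor. It moved the other way in CMT-613, from 101 to 3682 FPKM, and in CMT-013, from 2.89 to 7.43 FPKM.

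ENSCAFG00000013694 behaved much like it, at lower median levels in both tissues. In normal tissue the lowest, median and highest values were 0.159, 132 and 1940 FPKM, and in the tumors 0.0434, 0.701 and 636 FPKM. The level fell in 18 of 21 dogs, and 19 tumors lay below the median of the normal tissues. The mean paired log2 difference was -4.16 (SE 0.88, n = 21, adjusted p = 0.00475 by limma). The highest tumors were CMT-606 with 636 FPKM, whose normal tissue had 1692, and CMT-613 with 461, whose normal tissue had 2.84.

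**Figure D2:**
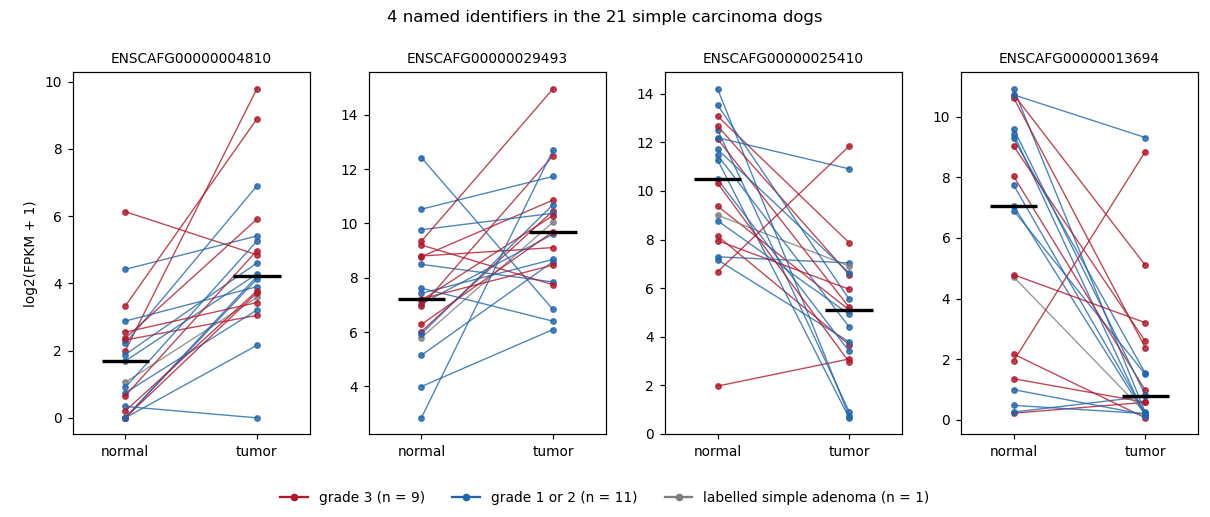
log2(FPKM + 1) of the 4 named identifiers in normal tissue and tumor, with 1 line per dog and black bars at the medians of the 21 dogs; colors give the label grade. Most lines rise in the left pair of panels and fall in the right pair, and a few dogs cross in the opposite direction in each panel.

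Called identifiers were grouped by how their paired differences varied together over the 21 dogs. These groups were formed from the same dogs, after results had been seen, and are therefore described without a test. The lower identifiers fell into a group of 282, named L1 here, and a group of 189, named L2, with 36 in neither. The higher identifiers gave groups of 50, 36, 36 and 21, named H1 to H4, with 7 in none. Both named losses belonged to L1, ENSCAFG00000029493 to H2 and ENSCAFG00000004810 to H3.

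L1 held the losses shared by most dogs. Its mean log2 level had a median of 4.32 in normal tissue, with a range from 2.28 to 5.73, and a median of 2.41 in the tumors, with a range from 1.04 to 5.50. The mean paired change was negative in 19 of 21 dogs and at most -1 in 13. The deepest change, -4.20, was that of CMT-206. The 4 dogs with changes within 0.5 of 0 were CMT-606, CMT-013, CMT-321 and CMT-053. Of these, CMT-606 was high in both tissues, with 5.55 in normal and 5.05 in tumor, while the other 3 already had normal tissues between 2.28 and 2.5. CMT-613 alone rose by more than 1, from 4.32 to 5.50.

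L2 divided the normal tissues rather than the tumors. The mean log2 level of its 189 identifiers was under 1.5 in 10 normal tissues and at least 3 in another 10, with a single tissue, that of CMT-292, between them at 2.18. In the tumors it was under 1.5 in 17 of 21 and at least 3 only in CMT-606, where it was 4.25 against 4.38 in the normal tissue. The change was accordingly at most -1 in 10 dogs and within 0.5 of 0 in another 10. The remaining dog, CMT-344, rose from 0.945 to 1.91. The deepest change, -5.21, was that of CMT-197. Of the 10 dogs with a change of at most -1 in L2, 8 also had one in L1. Another 5 dogs had it in L1 alone, 2 in L2 alone and 6 in neither. Among the discordant dogs, CMT-206 had the deepest change in L1 and a change of -0.13 in L2, and CMT-613, which rose in L1, had a change of -4.49 in L2.

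The higher groups held fewer identifiers. The median change over dogs was 1.27 for H1, 1.29 for H2, 1.00 for H3 and 1.63 for H4. Each of H1, H3 and H4 rose in 19 of 21 dogs and H2 in 18. H2 varied most, from -2.60 to 5.55.

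**Figure D3:**
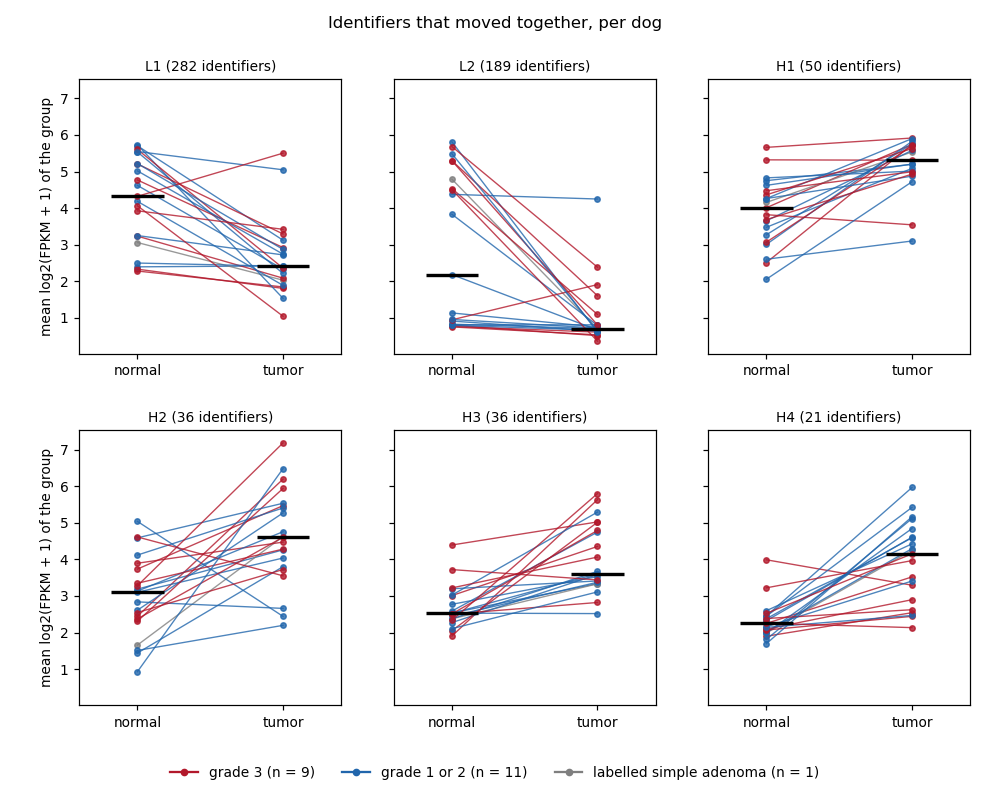
Mean log2(FPKM + 1) over the identifiers of each group in normal tissue and tumor, with 1 line per dog, black bars at the medians and colors for the label grade. L1 falls in most dogs, L2 starts either under 1.5 or at 3 and above in all normal tissues but 1, and H4 rises less in the grade 3 dogs than in most dogs of grade 1 or 2.

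The dogs shared the direction of change to different degrees. The correlation across identifiers between a dog's differences and the mean of the other dogs had a median of 0.409 and ran from 0.01 in CMT-613 to 0.656 in CMT-581; identifiers are not independent replicates, and the value is a description. Of the 150 identifiers called higher, a median of 85 rose by at least 1 in a given dog. Of the 507 called lower, between 35 and 473 fell by at least 1, with a median of 300. The lowest of these counts were 12 in CMT-613 and 35 in CMT-053. CMT-613 also had 138 of the 507 rising by at least 1, the most of any dog. The identifiers called lower accounted for a median of 6.47% of the summed FPKM in normal tissue and 0.94% in the tumors. Only CMT-606 with 6.84% and CMT-613 with 5.99% kept a share above 2% in the tumor. Both were in cluster NMF4 of Supplementary Data 1, and without them 195 identifiers were called higher and 618 lower. The paper describes NMF4 as a signature of adjacent normal tissue, derived from the same expression data. Leaving out these 2 dogs is therefore not an independent check.

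Whether the change between normal tissue and tumor depended on grade was examined in the 9 dogs of grade 3 and the 11 of grade 1 or 2. The paired change differed for 52 identifiers (0.355% of 14657, limma, adjusted p under 0.05 and a difference of at least 1). It was lower in grade 3 for 46 of them (0.314%) and higher for 6 (0.0409%). For the 46, the median over identifiers of the mean change was -0.90 in grade 3 and 1.11 in grades 1 and 2. In grades 1 and 2 the mean change was at least 1 for 27 of them, and in grade 3 it was at most -1 for 19. This count moved when dogs were left out. It was 16 without CMT-241, 21 without CMT-013 or CMT-439, 23 without CMT-193, 28 without CMT-242, 34 without CMT-606 or CMT-685 and 158 without CMT-344. In the 15 dogs operated on in 2017 it was 1, where fewer dogs and surgery year cannot be told apart. Without the replicate block, that is without pairing the libraries of a dog, it was 33.

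The tumor libraries of the same dogs differed between grades for 214 identifiers (1.46%), with 165 lower (1.13%) and 49 higher (0.334%) in grade 3. This share also moved with single dogs, to 2.97% without CMT-344, 2.78% without CMT-613 and between 0.587% and 0.962% without any 1 of CMT-105, CMT-193, CMT-197, CMT-241, CMT-242, CMT-321, CMT-439, CMT-644 and CMT-685. The normal libraries gave 0 calls in limma, with 1052 identifiers (7.18%) at an unadjusted p under 0.05 and a lowest adjusted p of 0.662. The difference between these counts was not itself tested.

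None of the 4 named identifiers passed the test between grades. For ENSCAFG00000025410 the mean paired change was -3.35 ± 4.14 (SD, n = 9) in grade 3 and -6.52 ± 4.24 (SD, n = 11) in grades 1 and 2. The difference of 3.17 had a 95% interval from -0.46 to 6.81, which includes both no difference and a large one. For ENSCAFG00000004810 the changes were 3.20 ± 2.74 (SD, n = 9) and 2.63 ± 1.62 (SD, n = 11), and the interval of the difference ran from -1.33 to 2.47. Described without a test, H4 changed by a median of 0.64 in grade 3, with a range from -0.69 to 1.63, and by 2.28 in grades 1 and 2, with a range from 0.33 to 3.51. Its tumor level had a median of 2.90 in grade 3 and 4.60 in grades 1 and 2, while the normal tissues had medians of 2.25 and 2.16.

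The changes were then set against those of 19 complex carcinomas and 13 benign tumors with their own normal tissue. The benign tumors were 7 simple adenomas, 4 complex adenomas and 2 benign mixed tumors. By the labels, the dogs with complex carcinomas were 7 to 17 years old and those with benign tumors 6 to 13. The simple carcinoma dogs were 2 to 19 years old. Grade also differed: among the complex carcinomas only CMT-301 was of grade 3 and the others were of grade 1 or 2. Of the simple carcinomas, 9 were of grade 3. Neither age nor grade was adjusted for. Only dogs with the same histology in both sources entered, which left 20 simple carcinomas. Against complex carcinomas, limma called 0 of 14712 identifiers (0%), with 2520 (17.1%) at an unadjusted p under 0.05 and a lowest adjusted p of 0.0682. This count of 0 was not stable. It became 46 without CMT-197, 15 without CMT-321, 13 without CMT-242, 4 without CMT-210 or CMT-685 and 2 without CMT-105, and 4 when the dogs were grouped by Supplementary Data 1 alone and 3 in those operated on in 2017. Against benign tumors, limma called 0 of 14654 (0%), with 807 (5.51%) at an unadjusted p under 0.05 and a lowest adjusted p of 0.833.

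The named identifiers had mean changes of the same sign in the other tumors. They had been chosen for large changes in the simple carcinoma dogs, which favors larger changes there in these comparisons. ENSCAFG00000025410 changed by -5.10 ± 4.39 (SD, n = 20) in simple carcinomas, by -5.38 ± 3.13 (SD, n = 19) in complex carcinomas and by -5.09 ± 4.21 (SD, n = 13) in benign tumors. The 95% interval of the difference ran from -2.10 to 2.67 against complex carcinomas and from -3.0 to 2.99 against benign tumors. ENSCAFG00000004810 changed by 2.89 ± 2.15 (SD, n = 20), 2.32 ± 1.95 (SD, n = 19) and 2.42 ± 2.55 (SD, n = 13) in the same order, with intervals of the difference from -0.71 to 1.85 against complex carcinomas and from -1.13 to 2.08 against benign tumors. A difference of more than 1 log2 unit is compatible with each of them.

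The groups hold identifiers called in the simple carcinoma dogs, so the choice favors larger changes there than in the other tumors. With that limit, L1 had medians of -1.88 in simple carcinomas, -1.51 in complex carcinomas and -1.50 in benign tumors. L2 changed by at most -1 in only part of the dogs of each class, in 9 of 20 simple carcinomas, 6 of 19 complex carcinomas and 8 of 13 benign tumors. H4 changed by a median of 1.45 in simple carcinomas, with a range from -0.69 to 3.51. In complex carcinomas it changed by a median of 2.84, with a range from 1.03 to 5.00, and by at least 1 in all 19 dogs. In benign tumors the median was 2.68. The ranges of simple and complex carcinomas overlapped, and no test was made on a group formed from these dogs. Grade was not balanced between these 2 classes. Among simple carcinomas the H4 median was 0.64 in grade 3 and 2.28 in grades 1 and 2. How far grade accounts for the contrast with complex carcinomas was not tested.

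**Figure D4:**
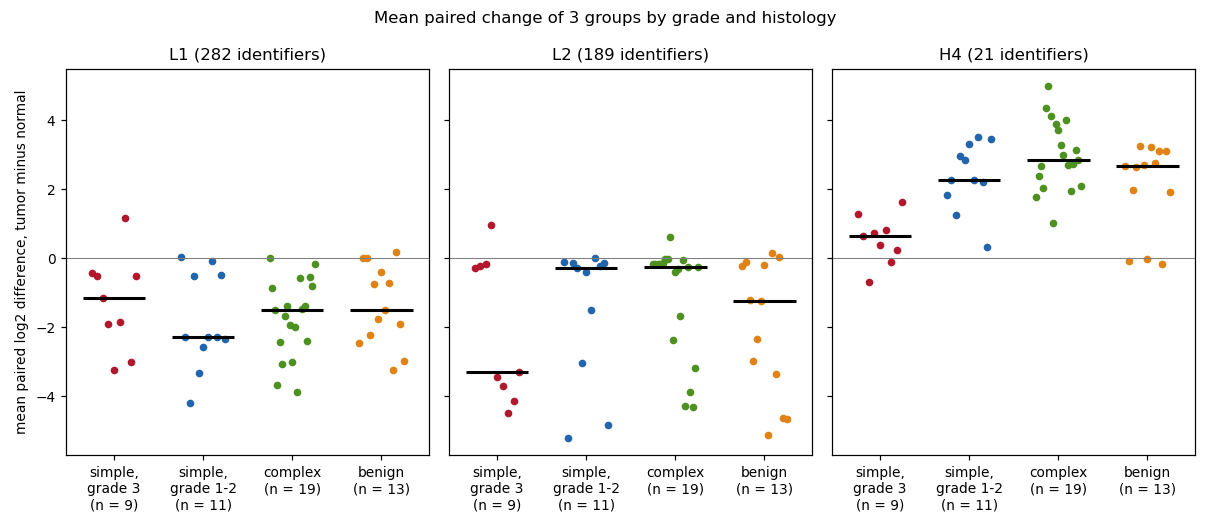
Mean paired log2 difference, tumor minus normal, of groups L1, L2 and H4, with 1 point per dog and black bars at the medians, for simple carcinomas of grade 3 and of grade 1 or 2, complex carcinomas and benign tumors. L2 is at most -1 in part of the dogs of every class, and the H4 medians are 0.64, 2.28, 2.84 and 2.68 from left to right.

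As a single measure of how far a tumor lay from its own normal tissue, the root mean square of the paired log2 differences over the 14657 identifiers was taken per dog. Over the 21 dogs it ran from 0.577 in CMT-606 to 1.42 in CMT-644, with a median of 1.03. The tumor of CMT-644 also had the lowest median FPKM of the tumors. After quantile normalization the value of CMT-644 was 1.22, and the highest was that of CMT-197 with 1.33. It was 1.07 ± 0.23 (SD, n = 9) in grade 3 and 1.00 ± 0.27 (SD, n = 11) in grades 1 and 2 (exact permutation test, two-sided, p = 0.568, adjusted over 3 comparisons p = 0.568). Simple carcinomas had 1.03 ± 0.25 (SD, n = 20) and complex carcinomas 1.09 ± 0.26 (SD, n = 19), with p = 0.51 and adjusted p = 0.568 in a two-sided permutation test. Benign tumors had 0.956 ± 0.272 (SD, n = 13), with p = 0.402 and adjusted p = 0.568 against simple carcinomas in the same permutation test. The differences in mean were smaller than the spread between dogs in all 3 comparisons.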

How the data were processed

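RNA-seq of poly(A) RNA was analysed for 21 dogs with a tumor and an adjacent normal library. According to the submitters' processing notes, reads were handled with FastQC 0.10.1, TopHat2 2.0.9, Bowtie2 and Cufflinks 2.1.1 on CanFam3.1. The authors deposited FPKM values, fragments scaled by transcript length and mapped fragments. Counts are not given in the table, so the depth per gene is unknown and no counting interval is given.

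Tumor or normal tissue, grade and surgery year came from the sample labels and histology from Supplementary Data 1. Both libraries of a dog come from the same animal, so the dog was a block in the paired fit; over 14657 identifiers the deviations of same-dog libraries correlated by 0.234 on average, against -0.0119 between dogs, and 11 of 21 tumors were closest to their own normal tissue. No 2 libraries held identical values.

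log2(FPKM + 1) was fitted with limma 3.58.1 in R 4.3.3 with an intensity trend; a log2 difference on this scale understates the change of low genes. Comparisons between grades or histologies were fitted on paired differences. There the trend covariate was corrected after results had been seen: the default on a matrix of differences is the mean difference, which gave standard errors up to 132 in the grade comparison, and it was replaced by the mean log2 level. This moved the grade calls from 54 to 52 and left 0 calls against complex carcinomas and against benign tumors. Permutation tests used scipy 1.17.1, exact for grade and with 100000 resamples otherwise.

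The fits were run on simulated data, in which noise was drawn independently for each identifier. Called identifiers here moved together in groups, so the simulation does not show how the fits behave on such data. Named identifiers were the 2 with the largest difference in each direction among called ones with a mean of at least 5 FPKM in the higher tissue and the same direction in at least 17 dogs. Gene lists had been prepared but could not be used, since the RefSeq table pairs 0 of its 43286 genes with Ensembl identifiers. The members, comparisons and lists were chosen with earlier results of these data known. The groups L1 to H4 (average linkage on 1 minus the Pearson correlation) were added after seeing the data: all called identifiers were first cut into 6 groups, then each direction at distances of 0.5, 0.6, 0.7 and 0.8, of which 0.7 was kept, with at least 20 identifiers per group. The measures per dog and the fit without the 2 libraries of lowest median were also added then.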

Additional observations from a re-analysis of the deposited data

Results flagged for a closer look

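The paired change differed between grade 3 and grades 1 and 2 for 52 identifiers in limma, by a test of the difference itself. Its dependence on single dogs is given with the result.

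Within the 9 dogs of grade 3, 19 measures were checked for a dog standing apart, and 3 did. For normally distributed values, chance picks out about 1 in 20 single checks. The measures overlap, and several rest on identifiers called in these same dogs, so the count of 3 cannot be set against that rate. The normal tissue of CMT-105 had a median of 3.29 FPKM, and the next lowest had 5.99. In the tumor of CMT-613, identifiers called lower made up 5.99% of the summed FPKM, against 1.66% in the next highest. In the tumor of CMT-743, identifiers called higher made up 19.1%, against 8.26% in the next highest; ENSCAFG00000029493 stood at 31875 FPKM there.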

How the results depend on the processing

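In the paired comparison, a pseudocount of 0.1 gave 1127 calls, with 1.75% of identifiers higher in tumors and 5.94% lower, and the dogs of 2017 gave 0.512% higher. Leaving out each dog gave 542 to 746 calls, with 0.798% to 1.21% higher and 2.89% to 3.88% lower. No replicate block gave 115 higher and 400 lower, and the exact Wilcoxon signed-rank test gave 140 and 426, of which all but 4 of the higher were also limma calls. No called identifier changed direction under the alternatives fitted with limma. Leaving out each dog moved the mean difference of ENSCAFG00000004810 from 2.63 to 3.08, of ENSCAFG00000029493 from 1.85 to 2.63, of ENSCAFG00000025410 from -5.46 to -4.53 and of ENSCAFG00000013694 from -4.72 to -3.84, all still called.

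Against complex carcinomas, Supplementary Data 1 alone gave 4 calls, 2017 gave 3 and leaving out a dog 0 to 46. Between grades, a pseudocount of 0.1 gave 81, no filter 31, 2017 gave 1, no replicate block 33 and leaving out a dog 16 to 158; tumor libraries gave 0.587% to 2.97% of identifiers. The cause was not tested. With the default trend covariate, fitted first, the grade comparison gave 54 calls.

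Some uncalled differences changed sign, and not only those near 0. In the main fit, ENSCAFG00000013694 differed by 0.99 against benign tumors and ENSCAFG00000029493 by 0.65 against complex carcinomas. Against complex carcinomas, ENSCAFG00000029493 was -0.23 with mapping rate as covariate, and leaving out a dog gave -0.25 to 0.73 for ENSCAFG00000025410 and -0.25 to 0.67 for ENSCAFG00000013694. Against benign tumors, ENSCAFG00000029493 was 0.063 by Supplementary Data 1 alone, 0.78 in 2017 and -0.44 to 0.37 without a dog; ENSCAFG00000025410 was 0.14 by Supplementary Data 1 alone and -0.54 to 0.44 without a dog; ENSCAFG00000013694 was -0.29 in 2017. Between grades, ENSCAFG00000004810 was -0.0018 to 1.13 without a dog.

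Complete linkage gave 108 and 84 identifiers for the largest lower groups in place of 282 and 189; cutoffs of 0.5, 0.6 and 0.8 and Spearman correlation left both within 1.5 times. FPKM without counts limits what can be said of low values.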
